A study of Mus musculus with 12 samples.

Results

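The wild-type embryos of 2 mouse lines were compared gene by gene at embryonic day 12.5 (E12.5). The members are the 6 wild-type libraries of the 12 in the series, 3 from the *Carm1* line and 3 from the *Pax3* line, and all 23420 genes that the 2 deposited count tables list under the same symbol. Each library came from a homogenized whole embryo. The wild-type *Carm1* embryos were offspring of crosses between heterozygotes for the Carm1tm1Mtb knockout allele, and the labels give their strain as C57BL/6. The wild-type *Pax3* embryos came from crosses between carriers of Pax3Sp2H (Splotch), whose label strain is mixed, from a long-closed colony descended from CBA/Ca, 101 and C3H/He stock in another laboratory. The mutant embryos, 3 *Carm1* KO and 3 Pax3Sp2H homozygotes, enter only as separate libraries in which the same line difference was measured again. The study compared mutant with wild-type embryos within each line, and the comparison here is between the 2 sets of its controls. Strain, colony, laboratory, count table and any difference in exact stage go with the line in all 12 libraries, so these cannot be told apart.

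At E12.5 the mouse embryo is in organogenesis. The liver is the main site of blood formation and has begun to secrete plasma proteins, the first skeletal muscle fibers are forming, cartilage models of the skeleton are being laid down and the neural tube still holds many dividing progenitors. Inbred strains differ in sequence, in gene copy number and in the retrotransposed copies of genes that each genome carries, and litters of 1 nominal age can differ in how far they have developed.

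Library totals ran from 17183344 to 23297860 counts. Pearson's r of log2 CPM (counts scaled to a common library size with TMM factors) was 0.994 to 0.996 between libraries of a line and 0.980 to 0.985 between lines, and the first principal component, which held 69.5% of the variance, separated the lines. No 2 libraries agreed within sampling noise, since the chi-square per degree of freedom was at least 7.1 for every pair. Y-linked counts were 4804 in *Carm1* wild-type embryo 3, 4447 and 6118 in *Pax3* wild-type embryos 2 and 3, and 2 to 3 in the other three, and *Xist*, which silences 1 X chromosome in female cells, was at 2521, 2425 and 19.6 CPM in the *Carm1* line and 2394, 0.286 and 0.297 CPM in the *Pax3* line. Each line therefore held embryos with and without Y-linked counts. The labels do not say whether embryos shared a litter, so P-values measure the spread between these embryos.

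The 15882 genes with enough counts were tested with edgeR (quasi-likelihood test, P adjusted by Benjamini-Hochberg), and log2 fold changes are given as *Pax3* line over *Carm1* line with their standard error, so that a negative value is lower in the *Pax3* line. In all, 6250 genes, 39.4% of those tested, differed at an adjusted P below 0.05. Of these 2963 (18.7%) were higher and 3287 (20.7%) lower in the *Pax3* line. With upper-quartile in place of TMM scaling the share of higher genes among those called was 35.5% rather than 47.4%. Most differences were small, with a median absolute log2 fold change of 0.36 among called genes. A log2 fold change of at least 1 was called for 868 genes (5.47%), of which 120 (0.756%) were higher and 748 (4.71%) lower. The 3 libraries of one line lay wholly above or below those of the other for 7881 genes (49.6%), and for 94.9% of the called ones. Within a line the median coefficient of variation of a gene was 4.89% in the *Carm1* line and 5.98% in the *Pax3* line. In bulk tissue, fewer cells of a type and less RNA per cell cannot be told apart.

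**Figure D1:**
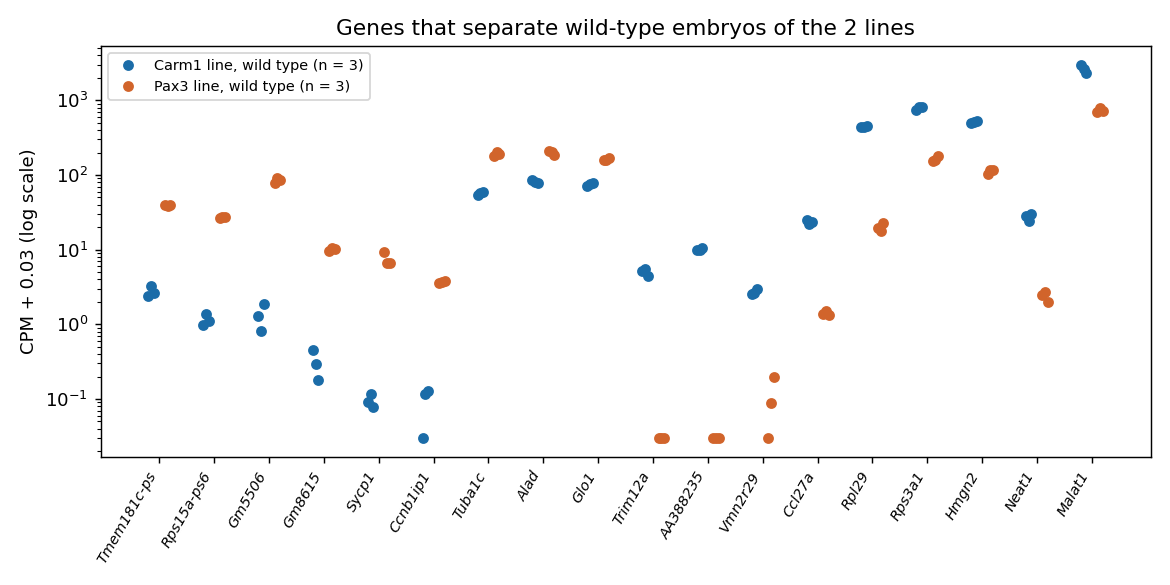
CPM (log scale) of 18 genes that differ between the lines, with 0.03 added so that a count of 0 can be drawn, and with 1 point per embryo. The genes were named for a large difference without overlap or for a small P-value, or picked with their values known. That the 3 *Carm1* and the 3 *Pax3* libraries do not overlap for any of them is therefore part of the choice. *Trim12a* and *AA388235* are at 0 CPM in all *Pax3* libraries.

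*Carm1*, the arginine methyltransferase removed in one set of mutants, was at 152, 147 and 138 CPM in the *Carm1* line and 152, 157 and 149 CPM in the *Pax3* line. The 2 ranges overlapped and no difference was called (log2 fold change 0.06 ± 0.06, edgeR adjusted P = 0.38), while with length and GC offsets one was (0.111, edgeR adjusted P = 0.0288). *Pax3*, a paired-box factor of muscle precursors, dorsal neural tube and neural crest, was at 20.7, 22.6 and 24.4 CPM in the *Carm1* line and 30.8, 24.7 and 27.9 CPM in the *Pax3* line. All Pax3-line values were above all Carm1-line values (log2 fold change 0.30 ± 0.09, edgeR adjusted P = 0.013), although the call was lost when *Carm1* wild-type embryo 1 (0.24) or *Pax3* wild-type embryo 1 (0.22) was left out.

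The genes of highest level included some that were called different between the lines and some that were not. Per kilobase of exon (RPKM, mean ± SD, n = 3, *Carm1* line first), the embryonic beta-like globin *Hbb-y* stood first, at 8502 ± 2662 and 8282 ± 1559 RPKM, followed by the elongation factor *Eef1a1* at 2723 ± 117 and 3578 ± 149.8 RPKM. The single-allele growth regulator RNA *H19* was at 1743 ± 25.9 and 1516 ± 73.5 RPKM, the embryonic alpha-like globin *Hba-x* at 958 ± 284 and 1569 ± 312 RPKM, the nuclear protein gene *Ptma* at 1361 ± 61.9 and 1379.9 ± 92.2 RPKM and the neuronal alpha-tubulin *Tuba1a* at 1207 ± 52.5 and 1196 ± 30.4 RPKM. The ferritin light chain *Ftl1* and the ribosomal protein gene *Rplp0* had 1071 ± 41 and 1042 ± 69.9 RPKM and 890.4 ± 22.7 and 894 ± 59.5 RPKM. *Hbb-y*, *Hba-x*, *Ptma*, *Tuba1a*, *Ftl1* and *Rplp0* did not pass the test, with edgeR adjusted P = 0.94, 0.14, 0.85, 0.89, 0.69 and 0.95. *Eef1a1* was higher by 0.39 ± 0.06 on the log2 scale and *H19* lower, at -0.20 ± 0.07 (edgeR adjusted P = 1.9e-05 and 0.016). The *H19* call was lost without *Carm1* embryo 2 (-0.19), without *Carm1* embryo 3 (-0.21) or without *Pax3* embryo 2 (-0.21).

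The adult-type beta globin *Beta-s* and the ribosomal stalk protein gene *Rplp1* were the genes of this group with the larger differences. *Beta-s* was at 1641, 1883 and 2312 CPM in the *Carm1* line and 771, 734 and 578 CPM in the *Pax3* line. No value of one line reached the range of the other (log2 fold change -1.49 ± 0.16, edgeR adjusted P = 0.00031). The annotation holds a near-identical neighbor of it, *Hbb-bt*, so its reads may be divided by the counting. *Rplp1* stood at 872, 896 and 986 against 454, 660.1 and 542 CPM (log2 fold change -0.73 ± 0.11, edgeR adjusted P = 0.00033).

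Among the genes that were higher in the *Pax3* line, those with the largest differences were mostly pseudogenes, copies or genes nearly silent in the *Carm1* line. Of the 120 genes higher by at least 1 on the log2 scale, 15% had an annotated near-identical copy (at least 95% identity over at least 50% of the transcript), against 6.82% of the 748 lower ones and 2.05% of all tested genes. *Sycp1*, a protein of the meiotic synaptonemal complex, was at 0.0599, 0.0868 and 0.0492 CPM in the *Carm1* line and 9.18, 6.58 and 6.57 CPM in the *Pax3* line. These Carm1-line values rest on 1 or 2 counts per library (log2 fold change 6.68 ± 0.36, edgeR adjusted P = 2.8e-14). *Ccnb1ip1*, a ubiquitin ligase of meiotic crossing-over, had 0, 0.0868 and 0.0984 against 3.55, 3.66 and 3.77 CPM (log2 fold change 5.66 ± 0.43, edgeR adjusted P = 5.1e-11).

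The processed pseudogene *Rps15a-ps6* (chromosome 11, 6172644-6173036, minus strand, GRCm38) and its parent *Rps15a*, a protein of the small ribosomal subunit, moved in opposite directions. The same held for the pseudogene *Gm5801* (chromosome 14, 56010536-56011315, minus strand) and its parent *Ube2j2*, a ubiquitin-conjugating enzyme of the endoplasmic reticulum. A stretch of 90 bases of each pair is shown, because reads of the parent and of the copy can be told apart only at the few bases that differ. Sequences are from the GENCODE vM21 transcripts on GRCm38, read in the direction of the transcript, with the differing bases in capitals. The *Rps15a* copy differs from its parent at 5 of 393 aligned bases, 3 of them here, and the *Ube2j2* copy at 6 of 780, 2 of them here.
Rps15a: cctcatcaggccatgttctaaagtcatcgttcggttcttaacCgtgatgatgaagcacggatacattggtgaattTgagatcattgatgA
Rps15a-ps6: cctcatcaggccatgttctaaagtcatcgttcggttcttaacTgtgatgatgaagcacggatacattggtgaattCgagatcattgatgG
Ube2j2: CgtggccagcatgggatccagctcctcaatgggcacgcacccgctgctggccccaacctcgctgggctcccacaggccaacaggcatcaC
Gm5801: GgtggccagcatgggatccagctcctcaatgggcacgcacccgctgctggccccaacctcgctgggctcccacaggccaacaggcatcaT

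*Rps15a-ps6* was close to 1 CPM in the *Carm1* line, with 0.959, 1.35 and 1.08 against 26.2, 27.2 and 27.8 CPM (log2 fold change 4.55 ± 0.14, edgeR adjusted P = 8.4e-20). *Rps15a* itself stood at 521, 538 and 568 against 246, 271 and 283 CPM (log2 fold change -1.02 ± 0.07, edgeR adjusted P = 2.6e-12). The sum of parent and copy was 543.7 ± 24.1 CPM in the *Carm1* line and 294.1 ± 19.6 CPM in the *Pax3* line (SD, n = 3), so this copy gained far fewer reads than the parent lost. The annotation holds further near-identical copies, *Rps15a-ps3*, *Rps15a-ps4*, *Rps15a-ps5* and *Rps15a-ps7*, which are not in that sum. *Gm5801* had 0.3, 0.347 and 0.443 against 9.08, 12.8 and 10.3 CPM (log2 fold change 4.84 ± 0.24, edgeR adjusted P = 4e-15) and *Ube2j2* 17.7, 18.4 and 17.4 against 12.6, 13.2 and 14.1 CPM (log2 fold change -0.42 ± 0.10, edgeR adjusted P = 0.00096). Their sum was 18.18 ± 0.456 and 23.98 ± 2.12 CPM.

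For another pair the sum was nearly the same in both lines. *Gm8615*, a transcribed processed pseudogene of *Gnpda1*, was at 0.419, 0.26 and 0.148 against 9.52, 10.6 and 10.2 CPM (log2 fold change 5.21 ± 0.25, edgeR adjusted P = 1.7e-15). *Gnpda1*, an enzyme of glucosamine metabolism, was at 20.4, 23.7 and 22.7 against 14.9, 11.4 and 11.4 CPM (log2 fold change -0.83 ± 0.11, edgeR adjusted P = 7e-07). Together they gave 22.6 ± 1.62 CPM in the *Carm1* line and 22.7 ± 1.54 CPM in the *Pax3* line. Not every gene and copy moved in opposite directions. *Ubb* and *Gm1821* were both called higher (log2 fold changes 0.199 and 1.84), as were *Tuba1c* and *Gm6682* (1.75 and 2.12). Their sums rose from 265.2 to 352.8 CPM and from 57.15 to 193.5 CPM. *Ubb*, *Gm1821* and *Gm6682* are not among the named genes counted below. *Gm5506*, a copy of the glycolytic enzyme gene *Eno1*, was at 1.26, 0.781 and 1.82 against 78, 91.1 and 85.7 CPM (log2 fold change 6.06 ± 0.15, edgeR adjusted P = 1.8e-17), while *Eno1* itself held at most 1 count in any of the 6 libraries and was not tested. Since the handling of reads that map to several places is not given in the sources used here, levels of these genes are uncertain.

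Other transcripts of this group had no near-identical copy in the annotation. *Tmem181c-ps*, an unprocessed pseudogene on chromosome 17, was at 2.4, 3.21 and 2.56 against 39.9, 38.3 and 39.9 CPM (log2 fold change 3.84 ± 0.11, edgeR adjusted P = 5.9e-20), and *Gm8801*, also an unprocessed pseudogene of that chromosome, at 0.12, 0.477 and 0.0984 against 4.47, 6.98 and 4.62 CPM (log2 fold change 4.38 ± 0.36, edgeR adjusted P = 6.4e-10). The processed pseudogene *Gm1943* had 2.22, 2.82 and 1.87 against 19.1, 18.8 and 18.5 CPM (log2 fold change 3.01 ± 0.14, edgeR adjusted P = 1e-15). *Gm13154*, *Gm3716* and *A530016L24Rik* completed the 12 largest rises, with log2 fold changes of 3.08 ± 0.36, 2.75 ± 0.26 and 2.61 ± 0.30. At a higher level, the alpha-tubulin gene *Tuba1c* stood at 53.7, 57.4 and 58.5 against 181, 203 and 189 CPM (log2 fold change 1.75 ± 0.06, edgeR adjusted P = 2.1e-18), but it has near-identical relatives, *Tuba1a* among them. The rule that named the 12 largest rises required groups without overlap, so their separation is part of the choice. The groups of *Tuba1c*, named by its P-value, did not overlap either.

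On the lower side, 4 genes named by the rule had no count in any wild-type embryo of the *Pax3* line. The uncharacterized *AA388235* was at 9.77, 9.85 and 10.6 CPM in the *Carm1* line, the cysteine protease inhibitor *Stfa1* at 3.60, 4.95 and 6.69 CPM, *Trim12a*, a relative of antiviral TRIM proteins, at 5.09, 5.56 and 4.38 CPM, and the macrophage elastase *Mmp12* at 2.16, 1.61 and 2.71 CPM. Against the 3 counts over the group that a count of 0 allows (0.0486 CPM), they were at least 207-fold, 104-fold, 103-fold and 44.3-fold lower. In the mutant embryos of the *Pax3* line these genes held 1, 0, 0 and 6 counts in all, against 616, 281, 260 and 166 in those of the *Carm1* line.

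*Rpl29*, a protein of the large ribosomal subunit, had the smallest P-value of all genes. It was at 443, 444 and 456 CPM in the *Carm1* line and 19.3, 17.8 and 22.9 CPM in the *Pax3* line, a drop of more than an order of magnitude (log2 fold change -4.48 ± 0.08, edgeR adjusted P = 7.8e-26). *Rps3a1*, of the small subunit, was at 741, 803 and 807 against 154, 157 and 181 CPM (log2 fold change -2.26 ± 0.07, edgeR adjusted P = 4.1e-19). Both have near-identical copies in the annotation. *Hmgn2*, a nucleosome-binding protein, stood at 502, 510.2 and 532 against 103, 118 and 119 CPM (log2 fold change -2.18 ± 0.07, edgeR adjusted P = 8.4e-20), and *Snhg11*, a snoRNA host gene, at 187, 198 and 190.2 against 50.5, 41.7 and 40.4 CPM (log2 fold change -2.12 ± 0.07, edgeR adjusted P = 3e-18).

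The skin chemokine gene *Ccl27a* was at 24.6, 22.4 and 23.8 against 1.36, 1.49 and 1.31 CPM (log2 fold change -4.09 ± 0.14, edgeR adjusted P = 6.2e-19). *Prg2*, the eosinophil granule major basic protein, was at 7.67, 6.73 and 10.5 against 0.194, 0.114 and 0 CPM (log2 fold change -6.33 ± 0.37, edgeR adjusted P = 1.7e-12), and *S100a8*, a calcium-binding protein of neutrophils, at 8.75, 8.81 and 16.9 against 0.777, 1.03 and 0.339 CPM (log2 fold change -4.06 ± 0.46, edgeR adjusted P = 0.00071). *Vmn2r29*, a vomeronasal receptor, *Gstm6*, a glutathione transferase, and *Rmrp*, the RNA of a ribonuclease complex, had log2 fold changes of -4.95 ± 0.48, -4.46 ± 0.37 and -4.77 ± 0.46. Their Pax3-line values were at most 0.169, 0.340 and 0.127 CPM. The neutrophil and eosinophil granule genes, a list chosen after these values were seen, summed to 78.1 to 126 CPM in the *Carm1* line and 14.3 to 18.3 CPM in the *Pax3* line.

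Lists of genes for single tissues and cell types differed in how many of their members were higher or lower in the *Pax3* line. Most tested genes of skeletal muscle contraction, cartilage and bone, red cells and hepatocyte secretion were lower. The lower hepatocyte secretion genes numbered only 11 without *Carm1* embryo 3 or without *Pax3* embryo 2. The lower red cell genes numbered only 10 without *Pax3* embryo 2. Most of the cell cycle and neural progenitor lists were higher, although for the cell cycle not without *Carm1* embryo 2 (13 of 34). For endothelial, eye and lens, epidermal, platelet and general neuronal genes most members were not called. The lists were written by hand from general knowledge of each tissue, but with earlier results of these data known. They are given by their counts beside the background of 18.7% higher and 20.7% lower over all tested genes. Over all those genes the median log2 fold change was -0.0067.

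**Figure D2:**
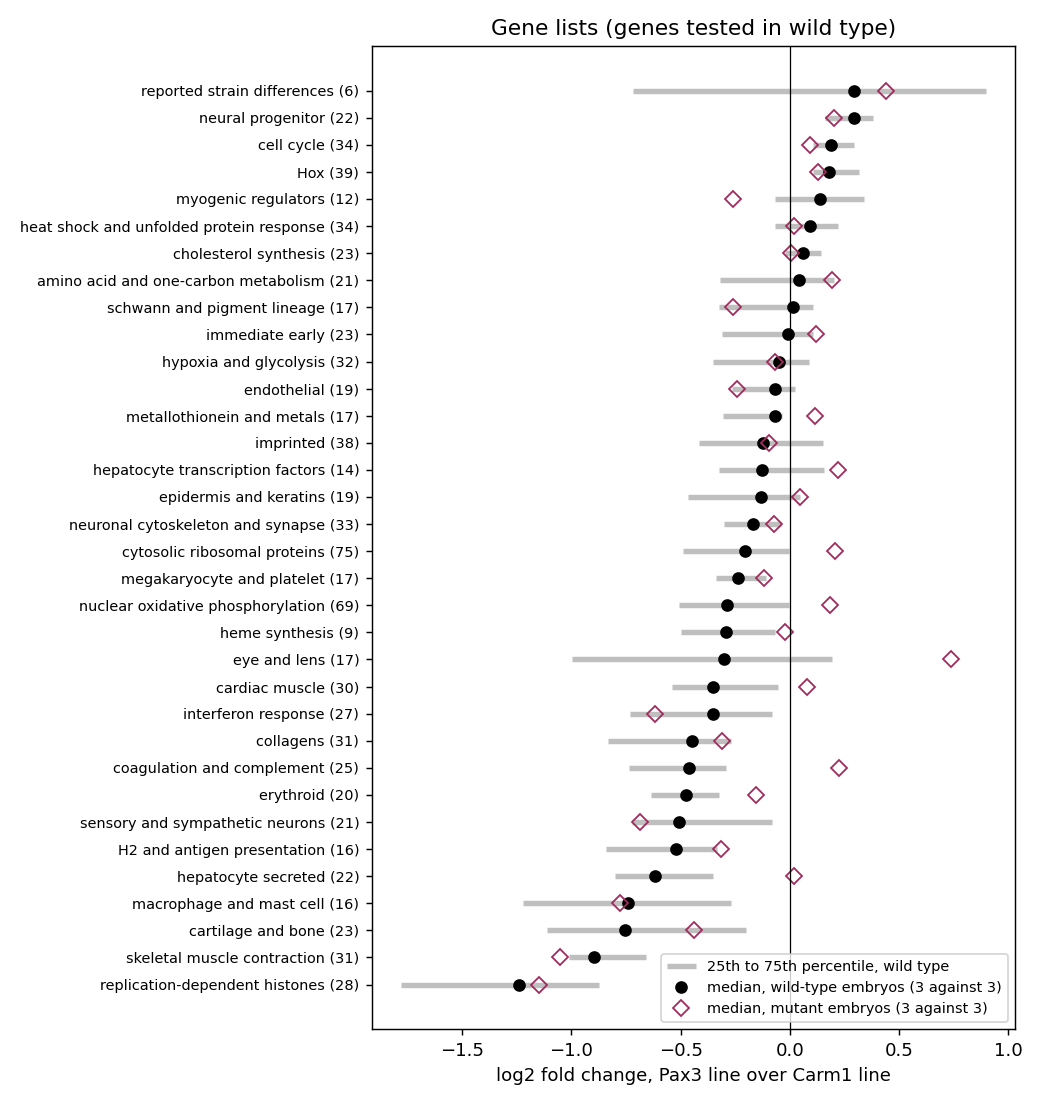
Median log2 fold change (*Pax3* line over *Carm1* line) of each gene list in wild-type embryos (filled circles, gray bars from the 25th to the 75th percentile) and in mutant embryos (open diamonds), with the number of genes tested in parentheses. The lists of skeletal muscle contraction (-0.896), cartilage and bone (-0.754) and hepatocyte secreted proteins (-0.616) lie to the left of 0 in wild-type embryos, and those of neural progenitors (0.293), the cell cycle (0.191) and Hox genes (0.181) to the right.

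Of 31 tested genes of skeletal muscle contraction, 29 were lower and none higher, and their summed level was 1152 to 1263 CPM in the *Carm1* line and 624 to 723.6 CPM in the *Pax3* line. *Mylpf*, the fast skeletal myosin light chain, was at 69.1, 70.0 and 70.2 against 32.8, 30.9 and 36.3 CPM (log2 fold change -1.06 ± 0.07, edgeR adjusted P = 2.7e-12). The fast troponin I gene *Tnni2* was at 4.19, 4.95 and 5.07 against 0.729, 1.2 and 1.06 CPM (log2 fold change -2.26 ± 0.24, edgeR adjusted P = 2.5e-08). The embryonic myosin heavy chain *Myh3* was at 301, 257 and 235 against 172, 139 and 112 CPM (log2 fold change -0.91 ± 0.20, edgeR adjusted P = 0.028), a call that was lost without *Carm1* embryo 1 (-0.81), *Carm1* embryo 2 (-0.93) or *Pax3* embryo 2 (-0.90).

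Calls went both ways among the factors that drive muscle differentiation. Of 12 myogenic regulators, 5 were higher and 3 lower (median 0.139), and 3 were higher without *Carm1* embryo 1 or without *Pax3* embryo 1. The median was 0.212 without *Carm1* embryo 1 and 0.23 without *Carm1* embryo 3. *Myog*, needed for fiber formation, had 62.8, 63.5 and 60.1 against 43.5, 47.1 and 49.3 CPM (log2 fold change -0.41 ± 0.07, edgeR adjusted P = 2.5e-05). *Myod1*, the determination factor, had 27.1, 27.9 and 23.9 against 28.8, 26.2 and 25.1 CPM with overlapping groups (log2 fold change 0.02 ± 0.09, edgeR adjusted P = 0.88). *Pax7*, of muscle and neural precursors, had 18, 16.5 and 14.5 against 23.2, 21.8 and 22.7 CPM (log2 fold change 0.47 ± 0.09, edgeR adjusted P = 0.00028).

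In cartilage and bone, 15 of 23 genes were lower and 1 higher (median -0.754). *Matn1*, a matrix protein of cartilage, was at 10.3, 5.38 and 7.63 against 1.6, 1.49 and 1.74 CPM (log2 fold change -2.24 ± 0.22, edgeR adjusted P = 2.2e-08), and *Mia*, secreted by chondrocytes, at 9.65, 7.99 and 9.45 against 2.72, 2.29 and 2.41 CPM (log2 fold change -1.86 ± 0.16, edgeR adjusted P = 8.1e-10). The gene that was higher was *Sox9*, the master regulator of chondrocytes that also acts in neural progenitors, at 150.2, 148 and 141 against 206, 206 and 197 CPM (log2 fold change 0.47 ± 0.05, edgeR adjusted P = 1.3e-07). Of 31 collagens, 21 were lower and 1 higher (median -0.446). *Col9a3*, of cartilage, had 129.8, 112 and 116 against 50.5, 52.1 and 43.8 CPM (log2 fold change -1.29 ± 0.07, edgeR adjusted P = 1.1e-13), and *Col6a1*, of muscle and connective tissue, 189, 174 and 163 against 91.9, 74.9 and 69.4 CPM (log2 fold change -1.15 ± 0.09, edgeR adjusted P = 3.3e-07).

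Of 30 cardiac genes, 17 were lower and 1 higher (median -0.351). *Tnnt2*, cardiac troponin T, was at 67.8, 68.1 and 69.2 against 45.7, 44.9 and 49 CPM (log2 fold change -0.55 ± 0.06, edgeR adjusted P = 1.5e-07). *Sln*, which restrains the calcium pump of atrial and skeletal muscle, was at 6.47, 8.81 and 6.74 against 2.43, 2.23 and 2.16 CPM (log2 fold change -1.70 ± 0.18, edgeR adjusted P = 2.4e-08). The gene that was higher, *Cdh2*, encodes N-cadherin, which neural tissue also makes, at 201, 206 and 204 against 272, 239 and 254 CPM (log2 fold change 0.32 ± 0.06, edgeR adjusted P = 7.4e-05).

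Secreted products of hepatocytes were lower for 15 of 22 genes and higher for none, with a summed level of 1950 to 2387 CPM against 1418 to 1763 CPM. Their median was -0.616. It was -0.434 without *Carm1* embryo 3, with 11 genes lower, and -0.419 with length and GC offsets, with 12 lower. *Alb*, serum albumin, was at 478, 498 and 582 against 395, 295 and 288 CPM (log2 fold change -0.67 ± 0.13, edgeR adjusted P = 0.0047). *Afp*, the fetal counterpart of albumin, was at 769.8, 678 and 829 against 646, 549 and 715 CPM, with overlapping groups (log2 fold change -0.25 ± 0.09, edgeR adjusted P = 0.03), and its call was lost without *Carm1* embryo 1 (-0.24) or 3 (-0.18) or without *Pax3* embryo 1 (-0.26) or 2 (-0.16). The apolipoprotein gene *Apoa2* was at 34.2, 31.6 and 48 against 20.2, 17.9 and 18.4 CPM (log2 fold change -1.01 ± 0.14, edgeR adjusted P = 8.9e-05) and the retinol carrier *Rbp4* at 49.7, 41.8 and 55.9 against 31.6, 31.2 and 32.2 CPM (log2 fold change -0.63 ± 0.09, edgeR adjusted P = 3.6e-06). Coagulation and complement genes were lower for 14 of 25 and higher for none (median -0.462), and for 7 without *Pax3* embryo 3. Of 14 hepatocyte transcription factors 2 were lower and 1 higher (median -0.129), and none was called in either direction without *Carm1* embryo 2 or 3, where the medians were -0.0642 and -0.0599. Without *Pax3* embryo 2 or 3 they were -0.0668 and -0.0745.

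Red cell genes were lower for 13 of 20 and higher for none (median -0.474), with a summed level of 2236 to 2453 CPM against 1389 to 1840 CPM. *Gata1*, the erythroid transcription factor, had 20.3, 21.4 and 21.2 against 16.9, 14.8 and 13.8 CPM (log2 fold change -0.47 ± 0.09, edgeR adjusted P = 0.00031). *Slc25a37*, which imports iron into mitochondria, had 303, 287 and 326 against 132, 151 and 114 CPM (log2 fold change -1.21 ± 0.08, edgeR adjusted P = 7.3e-08), the blood group antigen *Rhd* 39.2, 41.6 and 41.5 against 14.6, 14.8 and 11.7 CPM (log2 fold change -1.58 ± 0.09, edgeR adjusted P = 3.2e-13), and *Tspo2*, a membrane protein of late erythroblasts, 10.2, 10.9 and 11.9 against 1.17, 1.32 and 1.44 CPM (log2 fold change -3.07 ± 0.17, edgeR adjusted P = 8.6e-14). The embryonic globins did not pass the edgeR test in the wild-type libraries. *Hba-x* was at 643, 878 and 1175 against 1600.1, 1678 and 1136 CPM (log2 fold change 0.71 ± 0.30, edgeR adjusted P = 0.14) and *Hbb-bh1*, a beta-like globin of primitive red cells, at 141, 183 and 249 against 310.4, 403 and 299 CPM (log2 fold change 0.82 ± 0.27, edgeR adjusted P = 0.082). With *Carm1* embryo 3 left out both passed, at 0.95 and 1.06, as they did with all 12 libraries in one fit (0.703 and 0.81, edgeR adjusted P = 0.0389 and 0.0108). *Hbb-bh1* also passed with DESeq2 (0.83, adjusted P = 0.0123) and with length and GC offsets (1.1, edgeR adjusted P = 0.0251). *Hba-a1*, *Hba-a2*, *Hbb-b1* and *Hbb-b2* held 0 or 1 count in every library, were not tested and could not enter the RPKM ranking. The handling of reads that map to several places is not given, so these counts do not show that the genes are silent. Of 9 heme synthesis genes 5 were lower, and the 1 that was higher was *Alad*, whose gene copy number is known to vary between inbred strains, at 84.5, 79.4 and 77.5 against 208, 203 and 186 CPM (log2 fold change 1.31 ± 0.06, edgeR adjusted P = 1e-15).

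**Figure D3:**
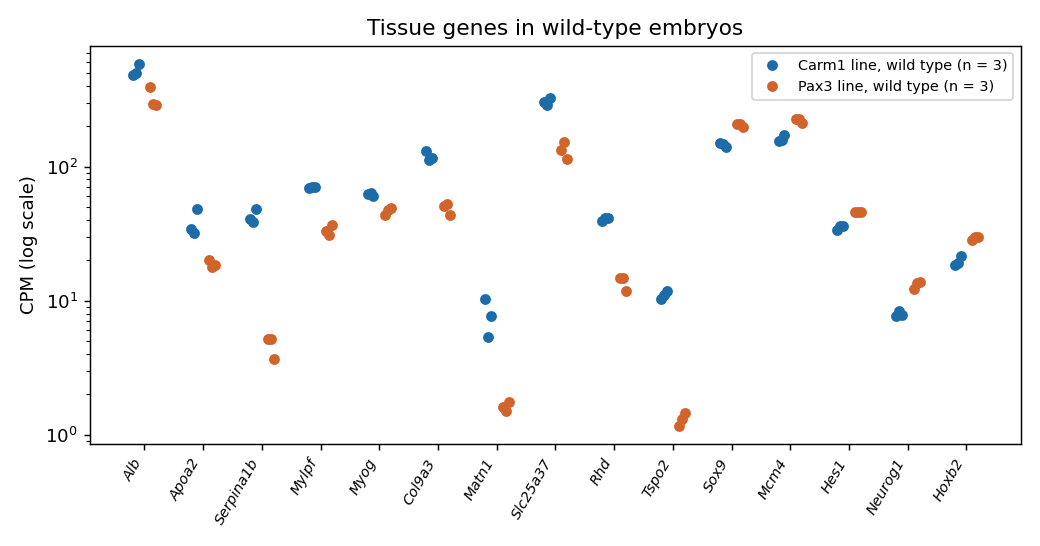
CPM (log scale) of tissue genes in the wild-type embryos, with 1 point per embryo. The genes were picked with their values known, so the lack of overlap is not a result about the lists. The liver, muscle, cartilage and red cell genes picked lie lower in the 3 *Pax3* libraries. *Sox9*, *Mcm4*, *Hes1*, *Neurog1* and *Hoxb2* lie higher. List members with overlapping groups, such as *Afp* and *Myod1*, are not drawn.

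Macrophage and mast cell markers were lower for 11 of 16 and higher for none (median -0.739), with *Lyz2*, a lysozyme of macrophages, at 14.7, 15.7 and 23.8 against 5.1, 5.66 and 5.38 CPM (log2 fold change -1.75 ± 0.17, edgeR adjusted P = 5e-07). Sensory and sympathetic neuron genes were lower for 11 of 21 and higher for none (median -0.508). The neuropeptide gene *Npy* was at 6.11, 5.47 and 6.45 against 1.75, 2.23 and 2.75 CPM (log2 fold change -1.41 ± 0.19, edgeR adjusted P = 1.6e-06). Of general neuronal genes 13 of 33 were lower and 1 higher (median -0.167), and 20 were lower with upper-quartile scaling. Endothelial genes (8 of 19 lower, median -0.066) and the Schwann and pigment lineage (3 of 17 lower and 1 higher, median 0.0148) had medians near 0. Eye and lens genes were lower for 7 of 17 and higher for 1 (median -0.303), epidermal genes and keratins lower for 7 of 19 and higher for 2 (median -0.131) and platelet genes lower for 5 of 17 (median -0.236). Several of these values moved by over 1.5 times when 1 library was left out. The lower endothelial genes numbered 5 without *Carm1* embryo 1 or 2 or without *Pax3* embryo 2 or 3, the eye and lens genes 4 without *Pax3* embryo 1 or 2, and the platelet genes 2 without *Pax3* embryo 1 or 3. The platelet median was -0.0964 without *Carm1* embryo 1 and the eye and lens median -0.515 without *Pax3* embryo 3. DESeq2 called 4 endothelial, 4 eye and lens and 3 platelet genes lower, and with length and GC offsets 2 eye and lens genes were lower. Markers of placenta and decidua were nearly absent, with 13 of 24 at 0 counts in all 6 libraries and only 3 tested.

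Of 34 cell cycle genes, 23 were higher and 1 lower (median 0.191), and 13 were higher without *Carm1* embryo 2. The replication helicase subunit *Mcm4* was at 155, 159 and 172 against 225, 226 and 212 CPM (log2 fold change 0.45 ± 0.06, edgeR adjusted P = 5.7e-07). The 1 lower gene was *Kif11*, a motor of the mitotic spindle, at 192, 198 and 198 against 180.4, 164 and 159.8 CPM (log2 fold change -0.22 ± 0.06, edgeR adjusted P = 0.0033). Among 22 neural progenitor genes 14 were higher and 1 lower (median 0.293). *Hes1*, a Notch target that holds progenitors undifferentiated, was at 33.7, 35.8 and 36.3 against 45.5, 45.5 and 45.5 CPM (log2 fold change 0.37 ± 0.07, edgeR adjusted P = 0.0003). The proneural gene *Neurog1* had 7.67, 8.33 and 7.78 against 12.2, 13.6 and 13.8 CPM (log2 fold change 0.73 ± 0.11, edgeR adjusted P = 1.4e-05), *Nkx6-1*, a ventral neural tube factor, 7.67, 6.42 and 8.86 against 12, 12.1 and 13 CPM (log2 fold change 0.70 ± 0.12, edgeR adjusted P = 7.6e-05), and *Sox3* 21.9, 20.0 and 19.5 against 24.8, 32.1 and 32.2 CPM (log2 fold change 0.54 ± 0.10, edgeR adjusted P = 0.00011).

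Of 39 Hox genes, which set position along the body axis, 15 were higher and none lower (median 0.181), and 9 were higher without *Carm1* embryo 2. *Hoxb1*, of the hindbrain, was at 0.36, 0.434 and 0.541 against 1.31, 1.89 and 1.48 CPM (log2 fold change 1.77 ± 0.36, edgeR adjusted P = 0.00034), and its neighbor *Hoxb2* at 18.4, 19.2 and 21.6 against 28.1, 29.8 and 29.9 CPM (log2 fold change 0.57 ± 0.09, edgeR adjusted P = 1.4e-05). Lists with calls in both directions included heat shock and unfolded protein genes (11 higher and 2 lower of 34), cholesterol synthesis (5 and 3 of 23), hypoxia and glycolysis (4 and 9 of 32), immediate early genes (3 and 4 of 23), amino acid and one-carbon metabolism (6 and 4 of 21) and metal handling (2 and 4 of 17). Without *Carm1* embryo 2 the higher heat shock genes numbered 7, the higher cholesterol genes 3, the higher hypoxia genes 1 and the lower immediate early genes 7. Without *Carm1* embryo 1 there were 3 higher cholesterol genes and 0 higher hypoxia genes. Without *Carm1* embryo 3 there were 3 higher and 2 lower amino acid genes, without *Pax3* embryo 1 there were 5 higher immediate early genes, without *Pax3* embryo 2 there was 1 higher metal gene, and without *Pax3* embryo 3 there was 1 higher hypoxia gene.

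Genes of the major histocompatibility complex, named H2 in the mouse, and of antigen presentation were lower for 9 of 16 and higher for 1 (median -0.519). *H2-D1*, a class I molecule, was at 6.47, 5.08 and 7.33 against 1.65, 2 and 1.53 CPM (log2 fold change -1.87 ± 0.20, edgeR adjusted P = 3.6e-08), *B2m*, its light chain, at 45, 49.1 and 56.5 against 35.9, 28.3 and 31.5 CPM (log2 fold change -0.65 ± 0.09, edgeR adjusted P = 4.3e-06), and the immunoproteasome subunit *Psmb8* at 1.98, 2.13 and 1.82 against 0.534, 0.687 and 0.72 CPM (log2 fold change -1.60 ± 0.31, edgeR adjusted P = 0.00021). Class I genes are highly polymorphic between strains, and reads were counted on the mm10 genome, which is that of C57BL/6J. Among 27 interferon response genes, 8 were lower and 3 higher (median -0.353, and -0.176 without *Carm1* embryo 3).

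Of 7 genes listed for a known allele or copy number difference between C57BL/6 and other inbred strains, 6 were tested. *Glo1*, a detoxifying enzyme whose gene is duplicated in several strains, was at 71.7, 74.7 and 78.6 against 159.8, 159 and 171 CPM (log2 fold change 1.12 ± 0.06, edgeR adjusted P = 2.8e-14). The tetherin gene *Bst2* had 6.35, 7.64 and 9.6 against 4.27, 2.86 and 4.15 CPM (log2 fold change -1.05 ± 0.17, edgeR adjusted P = 3.1e-05) and *Entpd4*, a nucleotide phosphatase, 1.02, 0.564 and 1.23 against 0.34, 0.343 and 0.127 CPM (log2 fold change -1.80 ± 0.49, edgeR adjusted P = 0.0045). *Wdfy1*, an endosomal protein, stood at 24.4, 24.6 and 47.2 against 70.1, 68.5 and 67.6 CPM without overlap, but did not pass (log2 fold change 1.10 ± 0.31, edgeR adjusted P = 0.055). *Carm1* embryo 3 lay well above the other two, and without it the gene passed, at 1.49. It also passed with DESeq2 (1.11, adjusted P = 0.00311) and with all 12 libraries in one fit (1.09, edgeR adjusted P = 0.0168). *Apobec3* and *Nnt* were not called either.

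The longest run of neighboring tested genes that were all called lay on chromosome 12, from 109452823 to 109661716 (GRCm38). All 11 genes were lower in the *Pax3* line. *Mir493*, *Mir3070a* and *Mir1188* met the count filter only through the *Carm1* line, so the length and direction of the run depend in part on that filter. This is the imprinted interval between *Dlk1*, expressed from the paternal copy, and a series of noncoding RNAs and microRNA hairpins expressed from the maternal copy. A mature form of 6 of its microRNA genes is shown from RefSeq (GRCm38.p6), 5′ to 3′, with the seed (bases 2 to 8) in capitals, because 6 of the 11 genes of the run are microRNA genes. The counts are reads on the hairpin loci in poly(A)-selected RNA and do not measure these mature forms.
Mir493 5p: uUGUACAUgguaggcuuuc
Mir337 3p: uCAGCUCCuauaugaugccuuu
Mir3070a 3p: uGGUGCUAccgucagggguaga
Mir3070b 3p: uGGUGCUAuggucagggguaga
Mir341 3p: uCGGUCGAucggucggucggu
Mir1188 5p: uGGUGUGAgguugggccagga

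*Mir3070a* and *Mir3070b* share their 3p seed and the others shown have seeds of their own. *Mir493* was at 1.92, 1.78 and 1.38 against 0.194, 0.458 and 0.212 CPM (log2 fold change -2.58 ± 0.40, edgeR adjusted P = 1.4e-05), *Mir3070a* at 2.52, 1.26 and 1.18 against 0.146, 0.172 and 0.169 CPM (log2 fold change -3.27 ± 0.48, edgeR adjusted P = 5.4e-06) and *Mir1188* at 1.92, 1.48 and 2.07 against 0.389, 0.4 and 0.127 CPM (log2 fold change -2.60 ± 0.40, edgeR adjusted P = 1.2e-05). The groups did not overlap for any of the 3. *Mir337*, *Mir3070b* and *Mir341* were lower too, with log2 fold changes of -3.28 ± 0.70, -2.44 ± 0.47 and -1.67 ± 0.45, and the small RNA *AF357425* had -1.68 ± 0.35.

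The long transcripts of the interval moved less. *Dlk1*, a growth regulator, was at 504, 443 and 487 against 411, 403 and 379 CPM (log2 fold change -0.26 ± 0.07, edgeR adjusted P = 0.0026). The noncoding RNA *Meg3* was at 1757, 1571 and 1599.5 against 925, 861 and 834 CPM (log2 fold change -0.91 ± 0.07, edgeR adjusted P = 9.8e-11) and *Rian*, a host of small nucleolar RNAs, at 678, 687 and 755 against 650.4, 589 and 632 CPM (log2 fold change -0.18 ± 0.07, edgeR adjusted P = 0.039). The *Rian* call was lost without *Carm1* embryo 2 (-0.20) or 3 (-0.13) or without *Pax3* embryo 2 (-0.14) or 3 (-0.19). *Rtl1*, a retrotransposon-derived gene needed in placenta, had 20.9, 15.3 and 9.99 against 5.44, 6.06 and 3.98 CPM (log2 fold change -1.58 ± 0.33, edgeR adjusted P = 0.013). The strand setting of the counting is not given in the sources used here, so reads of *Rtl1* and of RNAs antisense to it cannot be told apart.

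**Figure D4:**
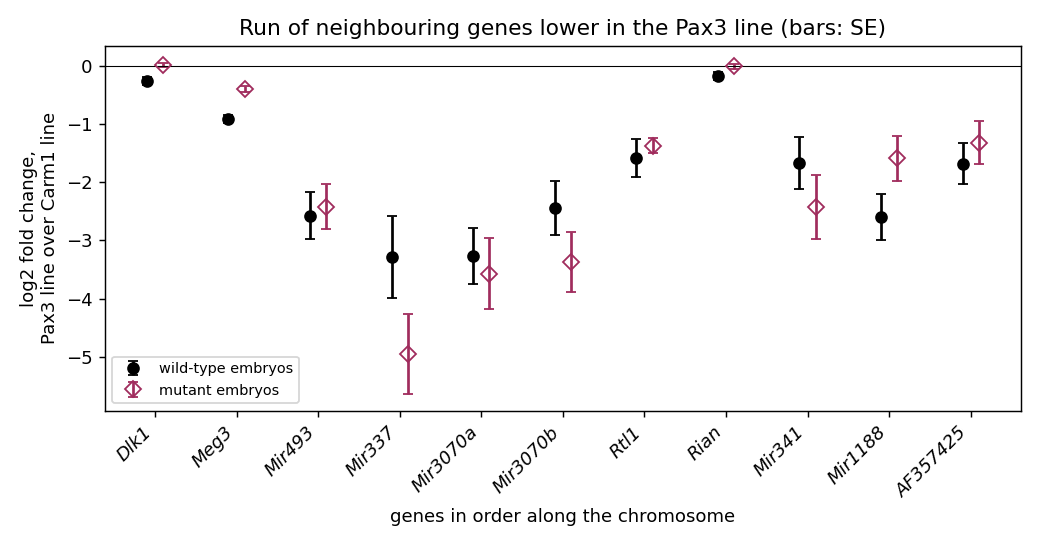
Log2 fold change (*Pax3* line over *Carm1* line, bars ± SE) of the 11 neighboring genes of the chromosome 12 run, in order along the chromosome, in wild-type and in mutant embryos. The microRNA hairpins lie below -1.5 in both, while *Dlk1* and *Rian* lie near 0 in the mutant embryos.

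Over all biotypes, 30 of 55 tested microRNA genes were lower and none higher, with a median log2 fold change of -1.07. Their median level was 1.11 CPM in the *Carm1* line and 0.498 CPM in the *Pax3* line. The count filter keeps a gene with enough counts in a single line, so microRNA genes could be tested through the *Carm1* line alone. The count of lower microRNA genes depends on that filter, and a stricter filter was not tested for them. Antisense RNAs were lower for 57 of 182 and higher for 6 (median -0.407), and processed pseudogenes were higher for 10 of 27 and lower for 4 (median 0.445). Replication-dependent histone genes, whose messages lack a poly(A) tail, were lower for 21 of 28 and higher for none (median -1.24), and for 11 where at least 10 counts in every library were required. *Hist1h4c* was at 1.5, 1.26 and 1.67 against 0.0971, 0.0572 and 0.169 CPM (log2 fold change -3.63 ± 0.49, edgeR adjusted P = 1.5e-06). Another run of 10 called genes, all lower, lay in the histone cluster of chromosome 13, from 23684199 to 23764406. It includes *Hist1h4c*, which met the count filter only through the *Carm1* line. Among 38 imprinted genes, 15 were lower and 7 higher (median -0.122, and -0.187 and -0.0802 without *Pax3* embryo 1 or 3). *Nespas*, an antisense RNA of the Gnas locus, was at 9.47, 6.77 and 5.86 against 1.51, 2.17 and 2.12 CPM (log2 fold change -1.92 ± 0.20, edgeR adjusted P = 3.3e-08), and *Ndn*, a neuronal growth suppressor, at 147, 147 and 156 against 192, 215 and 212 CPM (log2 fold change 0.46 ± 0.06, edgeR adjusted P = 5.7e-07).

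Other abundant RNAs that are nuclear or lack a poly(A) tail were also lower, in a set chosen after their values were seen. *Malat1*, a nuclear RNA of most cells, was at 3012, 2610.0 and 2295 against 709, 788 and 724 CPM (log2 fold change -1.83 ± 0.08, edgeR adjusted P = 9.4e-15), and *Neat1*, the scaffold of paraspeckles, at 27.9, 24.4 and 30.1 against 2.43, 2.69 and 1.95 CPM (log2 fold change -3.56 ± 0.13, edgeR adjusted P = 5.8e-18). *Rn45s*, the ribosomal RNA precursor, took 3.30% to 6.40% of the counts in the *Carm1* line and 0.764% to 1.70% in the *Pax3* line (log2 fold change -2.02 ± 0.45, edgeR adjusted P = 0.03). *Lars2*, which encodes a mitochondrial leucyl-tRNA synthetase and is not one of that set, is given beside *Rn45s* because it too was abundant and variable. It was at 4624, 2293 and 1699 against 252, 520.4 and 318 CPM (log2 fold change -2.98 ± 0.57, edgeR adjusted P = 0.019). The wild-type libraries ranked in the same order for *Lars2* as for *Rn45s*. Whether the *Lars2* counts are reads of its own message was not tested. Both of these varied widely within each line, and both calls were lost when *Carm1* embryo 2 (-2.06 and -3.12), *Pax3* embryo 1 (-1.78 and -2.78) or *Pax3* embryo 3 (-1.97 and -2.89) was left out. The *Rn45s* call was also lost without *Carm1* embryo 1 (-1.72). With *Rn45s* and *Lars2* taken out before scaling 6256 genes were called, 6226 of them among the 6250. The part of RNAs without a poly(A) tail in the other differences was otherwise not tested.

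Another 2 clusters of paralogous genes lay in runs in which every gene was lower by at least 1 on the log2 scale. One was the run of 6 stefin genes on chromosome 16, from 36156811 to 36455392. It includes *Stfa1*, which met the count filter only through the *Carm1* line. The other was the run of 5 alpha-1-antitrypsin genes on chromosome 12, from 103728156 to 103958975, which encode protease inhibitors secreted by the liver. *Serpina1b* was at 40.4, 38.7 and 48.4 against 5.2, 5.21 and 3.69 CPM (log2 fold change -3.19 ± 0.12, edgeR adjusted P = 2.4e-16) and *Serpina1a* at 9.41, 9.51 and 13.5 against 2.48, 2.29 and 3.35 CPM (log2 fold change -1.98 ± 0.17, edgeR adjusted P = 2e-09). *Serpina1c* and *Serpina1d* had -3.73 ± 0.62 and -1.63 ± 0.24. *Serpina1e*, at 5.93, 5.90 and 8.81 CPM in the *Carm1* line, held 1 count in the 3 *Pax3* libraries, so it too met the filter only through the *Carm1* line. These genes are near-identical to each other, so the split of reads between them is uncertain.

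Cytosolic ribosomal protein genes were lower for 39 of 75 and higher for 5 (median -0.206). With 1 library left out the higher ones numbered 10 without *Pax3* embryo 1, where the median was -0.124, and 2 or 3 without each of the others. *Rps29* was at 328, 333 and 400.4 against 60.7, 102 and 76.3 CPM (log2 fold change -2.16 ± 0.23, edgeR adjusted P = 0.0032) and *Rpl38* at 252, 262 and 291 against 65.8, 95.9 and 82.4 CPM (log2 fold change -1.73 ± 0.14, edgeR adjusted P = 0.0002). Nuclear genes of oxidative phosphorylation were lower for 41 of 69 and higher for 3 (median -0.289). *Ndufa1*, of complex I, was at 30.3, 29.3 and 33.9 against 8.21, 15.6 and 11.4 CPM (log2 fold change -1.42 ± 0.20, edgeR adjusted P = 0.0013), and *Atp5k*, of ATP synthase, at 42.9, 44.2 and 51.7 against 12.6, 17.4 and 14.9 CPM (log2 fold change -1.63 ± 0.10, edgeR adjusted P = 6.4e-12). The median exon length was 1781 bases in the ribosomal list and 1801 bases in that of oxidative phosphorylation. Over all genes, the median log2 fold change was -0.136 in the shortest genes by exon length (the lowest of 5 equal groups) and 0.0283 in the longest, and it was 0.0726 in the genes with the lowest GC content and -0.111 in those with the highest. With offsets for length and GC in the fit, the ribosomal protein genes had a median of -0.0968 with 15 higher and 34 lower, and the oxidative phosphorylation genes a median of -0.127 with 9 higher and 34 lower.

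The mutant embryos of the lines gave the same comparison in libraries that the wild-type comparison does not use, although there the lines also differ by mutation. Of 15829 genes tested, 6851 (43.3%) were called. Of the 6167 genes that were called in wild-type embryos and tested in the mutants, 4824 (78.2%) had the same sign, 2968 (48.1%) were called with the same sign and 431 were called with the opposite one. The share with the same sign was 68.0% below an absolute log2 fold change of 0.25, 77.0% from 0.25 to 0.5, 86.0% from 0.5 to 1, 87.8% from 1 to 2 and 96.3% above that, where 147 of 164 genes were called with the same sign and 1 with the opposite.

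**Figure D5:**
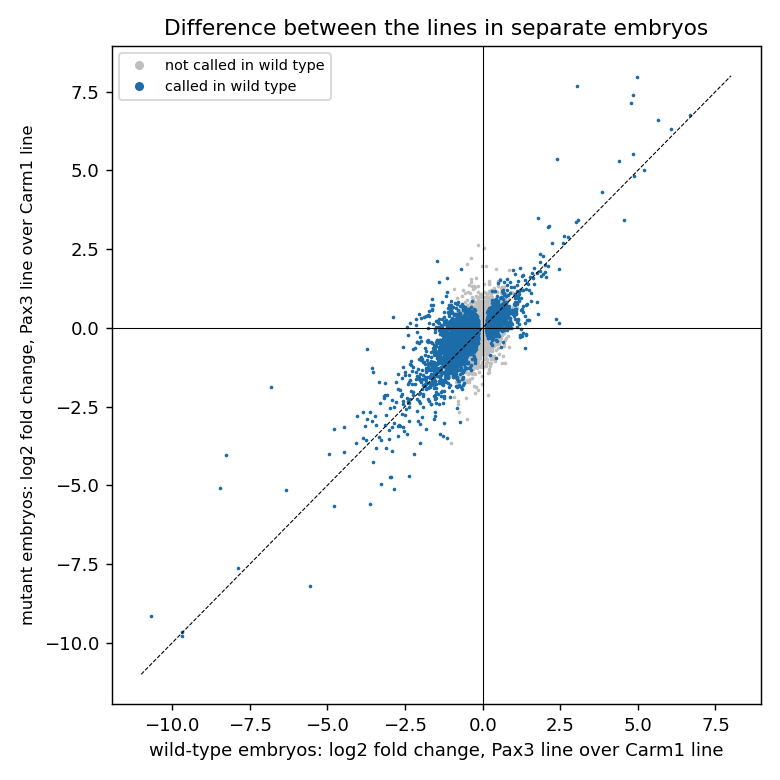
Log2 fold change (*Pax3* line over *Carm1* line) of each gene in wild-type embryos and in mutant embryos, with the genes called in wild type in blue and the line of equality dashed. Genes with an absolute value of 2 or more in wild-type embryos have the same sign in the mutants for 158 of 164.

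Every gene among the 12 largest differences each way had the same sign in the mutants. The mutant log2 fold change was 6.76 for *Sycp1*, 6.31 for *Gm5506*, 6.61 for *Ccnb1ip1*, 1.75 for *Tuba1c*, 1.17 for *Glo1*, -3.93 for *Rpl29*, -2.13 for *Rps3a1* and -3.66 for *Ccl27a*. Skeletal muscle contraction (mutant median -1.05), macrophage and mast cell (-0.776), sensory and sympathetic neuron (-0.685), histone (-1.15) and cartilage genes (-0.44) had negative medians in both comparisons. The medians of the cell cycle (0.0951), neural progenitor (0.205) and Hox lists (0.13) stayed above 0.

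For several lists the median had the opposite sign in mutant embryos. The mutant median was 0.739 for eye and lens genes, 0.225 for coagulation and complement, 0.223 for hepatocyte transcription factors, 0.0771 for cardiac genes, 0.0481 for epidermal genes and 0.0195 for hepatocyte secreted proteins, each negative in wild-type embryos. It was -0.26 both for myogenic regulators and for embryonic globins, where the wild-type medians were 0.139 and 0.711. For ribosomal protein genes it was 0.207, and the difference between the comparisons itself passed the test (interaction in one fit of all 12 libraries) for 50 of 75. For oxidative phosphorylation genes it was 0.183, and 53 of 69 passed, against 3115 of 16292 genes (19.1%) overall. In mutant embryos the shortest genes had a median of 0.0698 and the longest -0.0732, the reverse of the order in wild-type embryos.

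Single genes also differed between the comparisons. *Rps29* changed from -2.16 ± 0.23 in wild-type to 0.28 in mutant embryos (difference -2.45, edgeR adjusted P = 0.00023). *Apoa2* went from -1.01 ± 0.14 to 0.85 (difference -1.86, edgeR adjusted P = 6.2e-05), and *Beta-s* from -1.49 ± 0.16 to 0.22 (difference -1.72, edgeR adjusted P = 0.0083). *Myod1*, which did not differ by the test between wild-type embryos, was at -1.21 between the mutants (difference 1.22, edgeR adjusted P = 1e-07). The mutations cannot be told apart from the line in that comparison.

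Genes that varied most between embryos of a line were those of the sex chromosomes. By the coefficient of variation among genes of at least 10 CPM, the 4 Y-linked genes were among the 5 most variable of each line. In the *Carm1* line the other was *Erdr1*, a gene of the region shared by the sex chromosomes, at 0.36, 24.2 and 48.6 CPM in the *Carm1* line and 27.6, 34.6 and 62.2 CPM in the *Pax3* line, with a coefficient of variation of 98.9% in that line, and in the *Pax3* line it was *Xist*. With presence of Y-linked counts as a term in the fit, 5938 genes were called, 5588 of them among the 6250.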

How the data were processed

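Poly(A)-selected RNA from whole E12.5 embryos was sequenced by the authors as paired-end reads. The deposited values are raw counts of reads per gene, made by the authors with STAR and featureCounts on mm10 (versions, strand setting and multi-mapping rule are not given in the sources used here). The 2 tables were joined by symbol. Library totals were 17183344 to 23297860 counts. Floors (3 counts over the group) cover counting error only, while the standard errors and SD include the spread between embryos. Groups follow the submitters' labels. Genes were tested with edgeR 4.0.16 (R 4.3.3, TMM, filterByExpr, robust quasi-likelihood fit, Benjamini-Hochberg, threshold 0.05), first in the 6 wild-type and then in the 6 mutant libraries, and the difference of differences in all 12. DESeq2 1.42.0, which the study used, other scalings and filters, a replicate block, a Y-linked term (at least 100 counts), length and GC offsets (splines with 5 degrees of freedom, limma 3.58.1) and leaving out each library were alternatives. The script was tested on simulated counts. Of 23420 symbols, 21785 matched GENCODE vM21 (GRCm38) as written and 1260 by an older symbol. Near-identical copies were found with minimap2 2.31-r1302 (at least 95% identity over 50%). Named genes were the targeted and sex-linked genes, members of the lists (examples, picked with their values known), the 12 largest differences each way (mean of at least 1 CPM, no overlap), the 10 highest RPKM, the 5 smallest P-values each way, the 5 most variable per line (at least 10 CPM) and the longest runs. Members and the 40 lists were chosen with earlier results of these data known, and 2 lists were added after the values were seen. One gene picked under this rule is not reported here.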

Additional observations from a re-analysis of the deposited data

Results flagged for a closer look

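Among the named genes, those below showed a difference between the lines that was not the same in wild-type as in mutant embryos, by the edgeR test of the difference itself over all 12 libraries, adjusted over 16292 genes (19.1% of which passed). Each value is the log2 fold change between the lines in wild-type embryos minus that in mutant embryos. The mutations are part of the mutant comparison, and their share in these values cannot be told apart from that of the line.

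Genes of the liver and of red cells were lower in the wild-type comparison than in the mutant one. The values were *Serpina1a* -1.58 (adjusted P = 4.1e-05), *Serpina1b* -1.02 (adjusted P = 0.00017), *Serpina1c* -3.07 (adjusted P = 0.011), *Serpina1d* -2.57 (adjusted P = 2.8e-05), *Serpina1e* -4.24 (adjusted P = 0.04), *Alb* -0.989 (adjusted P = 0.017), *Apoa2* -1.86 (adjusted P = 6.2e-05), *Rbp4* -1.27 (adjusted P = 3.6e-09), *Tspo2* -0.937 (adjusted P = 0.022), *Rhd* -0.839 (adjusted P = 3.5e-05), *Gata1* -0.647 (adjusted P = 0.0023) and *Beta-s* -1.72 (adjusted P = 0.0083). The fitted value of *Serpina1e* rests on 1 count in the *Pax3* wild-type libraries. *Hbb-bh1* went the other way, at 1.07 (adjusted P = 0.03). Genes of the ribosome and of the respiratory chain had among the largest values, with *Rps29* -2.45 (adjusted P = 0.00023), *Rpl38* -1.87 (adjusted P = 0.00012), *Rplp1* -0.841 (adjusted P = 0.00085), *Rps15a* -0.54 (adjusted P = 7.6e-06), *Rpl29* -0.557 (adjusted P = 4.2e-05), *Ndufa1* -1.57 (adjusted P = 0.00033) and *Atp5k* -2.21 (adjusted P = 3.6e-09), and the pseudogene *Rps15a-ps6* had 1.13 (adjusted P = 0.0071). *Rps29*, *Rpl38*, *Rplp1*, *Ndufa1* and *Atp5k* were lower in the *Pax3* line between wild-type embryos and had values above 0 between mutant embryos.

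In cartilage and muscle the values were *Col9a3* -1.11 (adjusted P = 0.00089), *Matn1* -1.57 (adjusted P = 0.0086), *Mia* -1.23 (adjusted P = 0.00036), *Tnnt2* -0.762 (adjusted P = 3.6e-08), *Cdh2* 0.296 (adjusted P = 0.0022), *Myog* 0.835 (adjusted P = 1.5e-07), *Myod1* 1.22 (adjusted P = 1e-07) and *Pax7* 0.453 (adjusted P = 0.013). Nervous system genes had *Neurog1* 0.604 (adjusted P = 0.012), *Npy* -0.773 (adjusted P = 0.041), *Ndn* -0.571 (adjusted P = 8.9e-06) and *Snhg11* -0.601 (adjusted P = 6e-06). The targeted genes had *Carm1* -0.918 (adjusted P = 2.4e-10) and *Pax3* 0.82 (adjusted P = 2.9e-05). The remaining values were *Hmgn2* -0.417 (adjusted P = 0.00012), *Alad* -0.37 (adjusted P = 0.00084), *Neat1* -0.622 (adjusted P = 0.021), *Dlk1* -0.289 (adjusted P = 0.0067), *Meg3* -0.526 (adjusted P = 0.00011), *H19* -0.262 (adjusted P = 0.024), *Mcm4* 0.295 (adjusted P = 0.0024), *Ube2j2* -0.41 (adjusted P = 0.025), *Eef1a1* 0.288 (adjusted P = 0.0086), *B2m* 0.343 (adjusted P = 0.037), *Ptma* -0.336 (adjusted P = 0.0048) and *Ftl1* -0.335 (adjusted P = 0.007).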

How the results depend on the processing

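The count of 6250 called genes was 5411 with DESeq2 (5221 shared), 6278 with RLE and 5906 with upper-quartile factors, 6642 with no filter on low counts, 5791 with at least 10 counts in every library, 7118 with all 12 libraries in one fit, 6731 with length and GC offsets (5289 shared), 5938 with the Y-linked term, 6256 without *Rn45s* and *Lars2* (added after the data were seen) and 4827 to 5849 with one library left out. The 868 genes with an absolute log2 fold change of at least 1 became 509 with at least 10 counts in every library, a filter that removes genes silent in one line. Embryos with the same replicate number correlated at 0.181, -0.213 and 0.307 in their deviations from the group mean, so the numbers do not pair the embryos, and with the replicate block 6351 genes were called, 6130 of them shared.

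Over 112 named genes and 16 alternatives, 1694 of 1759 log2 fold changes kept their direction and side of the threshold. Those that changed sign belonged to 6 genes near 0. Under upper-quartile factors *Myod1* was at -0.0247, *Ptma* at -0.0258 and *Rplp0* at -0.0389. With length and GC offsets *Hbb-y* was at 0.256, *Tuba1a* at 0.115 and *Ftl1* at 0.192 (edgeR adjusted P = 0.00341). With the Y-linked term *Ptma* was at -0.00962 and *Rplp0* at -0.0132, and *Rplp0* was at -0.00354 with at least 10 counts and -0.00103 with all 12 libraries. With one library left out they ran from -0.0455 to 0.0678 for *Myod1*, -0.244 to 0.212 for *Hbb-y*, -0.0329 to 0.0608 for *Ptma*, -0.0494 to 0.00853 for *Tuba1a*, -0.0665 to 0.0172 for *Ftl1* and -0.0373 to 0.0579 for *Rplp0*. The cause was not tested. No list with a median of at least 0.1 in size changed sign. *Alb* (-0.68) and *Beta-s* (-1.48) were not called with the replicate block, *Rn45s* and *Lars2* with the replicate block or the Y-linked term, *Afp* (-0.243) with DESeq2, *Rian* (-0.174) with no filter, nor *Mir341* (-0.94) with length and GC offsets. Calls were gained by *Carm1* (0.111) and *Rplp0* (0.147) with length and GC offsets, by *Hbb-bh1* with DESeq2, all 12 libraries or the offsets, by *Hba-x* with all 12 libraries and by *Wdfy1* with DESeq2 or all 12 libraries. Of the 10 genes of highest RPKM, 8 remained with the longest transcript in place of the exon union. With 3 embryos a group from unlabeled litters, and line, strain, colony and table on the same split, no value can be assigned to any one of these.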
